A study of Caenorhabditis elegans with 2 samples.

Results

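Divergent promoters are stretches of DNA shared by a pair of genes that are read away from each other on opposite strands. The 387 autosomal peaks described here had their summit in promoter windows of protein-coding genes on both strands, and they made up 15.1% of the 2570 peaks that the authors kept after comparing replicates by the irreproducible discovery rate (IDR). A window reached from 1000 bp before a transcript start to 200 bp past it, and the choice used only summit positions and the annotation. On the autosomes, 739 further IDR peaks lay in windows of 1 strand alone and 841 lay outside windows, which gives 1967 autosomal peaks in all. Another 20 peaks met the same condition on chromosome X and were left out by the definition.

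The peaks came from chromatin immunoprecipitation with sequencing (ChIP-seq) of EGL-5 fused to eGFP, a green fluorescent tag, in whole Caenorhabditis elegans larvae of the L3 stage with the sexes mixed. All values come from 1 transgenic line, OP54. It has the allele unc-119(ed3) on chromosome III together with wgIs54, an integrated insertion listed for egl-5. Where the insertion lies in the genome was not examined here. There was 1 group of 2 samples, labelled as biological replicates, and no untagged or input group was analysed here. Whole larvae were used, so more cells with a bound promoter and more binding per cell cannot be told apart. The lists give no reads, so the depth behind a peak is unknown. Replicate numbers follow the lists on the ce11 build. In the ce10 lists the same scores stand under the opposite numbers, so which sample a number belongs to could not be settled.

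EGL-5 is a homeodomain protein of the Abdominal-B type that patterns the posterior body, including rectal cells, parts of the male tail and the HSN neurons. Genes in the compact worm genome often lie head to head, so that a single stretch of DNA holds the upstream sequence of both, and a bound factor there cannot be assigned to either gene from its position alone. Many genes arranged in this way encode proteins that all cells need, such as parts of the ribosome. ChIP-seq lists of many worm factors share regions at promoters of widely expressed genes, and the present lists hold no second factor with which to compare them.

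The DNA at the summits was of more than one kind, and 8 examples are printed to show this. The hexamer GAGAGA, searched on both strands, occurred within 50 bp of the summit at 67 of the 387 peaks, or 17.3%, against 26.8% of all IDR peaks. The 5 highest-scoring peaks that hold it are given first, leaving out 1 chromosome whose sequence is not printed. Each line shows the plus strand of ce11 from 50 bases before the summit to 50 bases past it, with GAGAGA or its reverse complement TCTCTC in capitals.
eef-1A.1 and rfc-4, chrIII:6972076-6972176: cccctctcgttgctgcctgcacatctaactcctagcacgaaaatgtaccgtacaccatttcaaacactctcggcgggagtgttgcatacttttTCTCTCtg
R05D3.8 and rfp-1, chrIII:8358340-8358440: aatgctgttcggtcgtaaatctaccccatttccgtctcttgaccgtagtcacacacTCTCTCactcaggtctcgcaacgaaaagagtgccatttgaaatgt
K01G5.10 and tasp-1, chrIII:10759203-10759303: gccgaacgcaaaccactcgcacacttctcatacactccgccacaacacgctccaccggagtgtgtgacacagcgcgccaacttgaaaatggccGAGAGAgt
C17H12.2 and vha-8, chrIV:6790575-6790675: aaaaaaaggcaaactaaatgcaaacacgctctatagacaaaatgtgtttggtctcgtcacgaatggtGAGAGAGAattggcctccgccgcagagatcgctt
cup-14 and ndub-8, chrII:13872626-13872726: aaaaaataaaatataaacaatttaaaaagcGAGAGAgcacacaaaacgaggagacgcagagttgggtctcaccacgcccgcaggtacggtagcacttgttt
The repeat stood near the edge of the window at 2 of these 5 peaks, in eef-1A.1 and rfc-4 and in K01G5.10 and tasp-1, and its longest uninterrupted run here was the 8 bases at C17H12.2 and vha-8.

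The 3 highest-scoring peaks without the repeat, under the same limits, lay between tbb-1 and rib-2, rpl-12 and lin-54, and iff-2 and F54C9.14. Capitals here mark any of the 10 hexamers that stood out most at the summits over the DNA 200 to 300 bp away, which are described further on.
tbb-1 and rib-2, chrIII:10742608-10742708: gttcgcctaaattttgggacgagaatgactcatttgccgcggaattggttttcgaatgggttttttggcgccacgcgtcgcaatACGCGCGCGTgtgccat
rpl-12 and lin-54, chrIV:13240645-13240745: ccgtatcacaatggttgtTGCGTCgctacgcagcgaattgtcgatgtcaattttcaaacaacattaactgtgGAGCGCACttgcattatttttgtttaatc
iff-2 and F54C9.14, chrII:8561384-8561484: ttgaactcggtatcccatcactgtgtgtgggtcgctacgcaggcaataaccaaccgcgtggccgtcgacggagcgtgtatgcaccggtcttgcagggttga
The first holds 1 of the 10 hexamers and the second holds 3, while the sequence at iff-2 and F54C9.14 holds none of them. Guanine and cytosine made up 52.5%, 40.6% and 58.4% of these 3 sequences in the order printed. A match is a description of letters and not a bound site.

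The peaks lay between the genes, with no lean to either strand. Of the 387 summits, 352 (91.0%) were upstream of both starts. The opposed starts were a median of 519 bp apart, with quartiles of 324.5 and 769 bp. The nearer start was that of the minus-strand gene at 193 peaks and that of the plus-strand gene at 194. The position of the summit between the starts, as a fraction of the way across, had a median of 0.501, and 160 summits (45.5% of those between starts) fell in the middle of 3 equal parts. Relative to the nearer start the median summit was at -144 bp, against -247 bp for one-strand promoter peaks, and relative to the farther start it was at -363 bp. The 387 peaks involved 792 genes and 384 distinct pairs of nearest starts, and 3 pairs held 2 peaks each. These were F40F11.3 with mig-38, at scores of 60.4 and 34.7, ecps-1 with atx-2, at 35.1 and 31.7, and rpn-6.1 with F57B9.1, at 42.9 and 34.9. Windows of 3 or more genes met at 23 peaks, as at the start cluster of Y62E10A.20, Y62E10A.23, lsm-3 and mdt-9.

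Spacing varied widely, and some starts nearly coincided. The closest opposed starts were those of F32D8.14 and F32D8.5, 12 bp apart, with a score of 55.5. Next came Y59E9AL.36 and nbet-1 at 20 bp, with a score of 76.2, and Y57E12AL.6 and Y57E12AL.1 at 60 bp, with a score of 53.9. The widest were mif-4 and ipla-6 at 1659 bp, nmat-2 and rab-5 at 1598 bp, and Y46G5A.47 and spds-1 at 1593 bp, with scores of 61.4, 47.2 and 30.9. At 3 peaks the starts did not face away from each other but overlapped, namely R07G3.7 and oig-4, rpb-7 and Y54E10BR.2, and Y50D4A.4 and wrb-1. Neither spacing nor the distance to the nearer start went with the score. Spearman's rho over the 387 peaks was 0.04 with spacing and 0.04 with distance, and peaks of this kind share a list and a scale. The score is the authors' value for the peak in their signal column. Its scale is not stated, and it is used here only to rank and describe peaks within a list.

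Divergent promoter sequence was small in extent and dense in peaks. It covered 2.21 Mb, which is 9.90% of autosomal promoter sequence and 2.68% of the autosomes, but held 34.4% of autosomal promoter peaks. The density was 175 summits per Mb of divergent promoter sequence, against 36.7 per Mb of one-strand promoter sequence and 13.97 per Mb of the rest, a ratio of 4.77 to one-strand sequence. In the 2570 highest peaks of each replicate, the densities were 145 against 34.5 per Mb in replicate 1 and 180.0 against 37.5 per Mb in replicate 2. The ratios of 4.204 and 4.805 had the same direction in both. Among the 26049 pooled peaks that IDR did not keep, the ratio was 1.41. That list is labelled as peaks and background, and it may hold regions with no binding.

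Sequence shared by 2 windows lies closer to starts than sequence in 1 window, so densities were also compared at like distance from the nearest start, a comparison added after the data were seen. Divergent sequence held more IDR summits per Mb in all 7 distance classes. Between 100 and 200 bp upstream of the nearest start there were 422 summits per Mb in divergent sequence and 94.7 per Mb in one-strand sequence, a ratio of 4.46. In the last 100 bp before the start the values were 263 and 53.7 per Mb, a ratio of 4.90. The ratio was smaller beyond 400 bp, at 2.22 between 400 and 600 bp with 16 divergent summits and at 2.16 between 600 and 1000 bp with 7. Within replicates the ratio over the 7 classes ran between 2.06 and 4.25 in replicate 1 and between 1.40 and 5.99 in replicate 2.

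**Figure D1:**
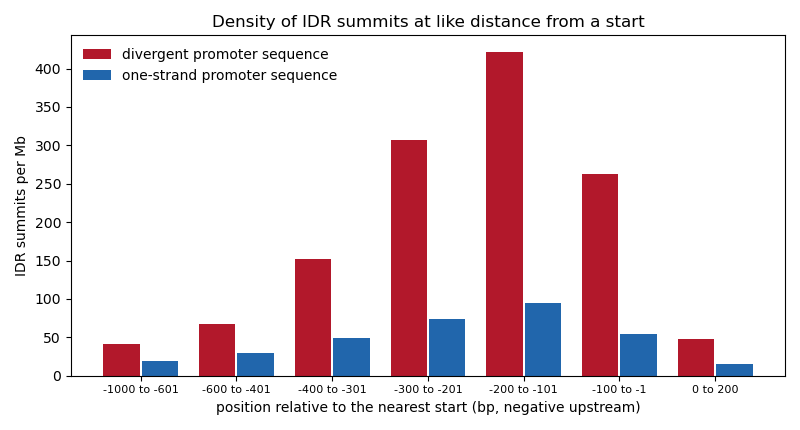
IDR summits per Mb of autosomal promoter sequence (vertical axis) by position relative to the nearest start in bp (horizontal axis), for divergent sequence (red, left of each pair) and one-strand sequence (blue). Divergent sequence is denser in every class, with 422 against 94.7 summits per Mb between 100 and 200 bp upstream.

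Taken from the side of the genes, most head-to-head pairs had no peak. Of 1765 autosomal pairs with starts up to 1000 bp apart, 302 had an IDR summit between the starts, which is 17.1%. The 95% interval for counting error was 15.4 to 18.95%. By the highest peaks of each replicate the share was 13.8% in replicate 1 and 17.7% in replicate 2. The share was 7.95% for the 264 pairs up to 200 bp apart, between 20.2 and 20.7% in the 3 classes from 201 to 800 bp, and 11.1% for the 271 pairs from 801 to 1000 bp. Replicate 1 gave 6.82% and 11.1% in the closest and widest classes, and replicate 2 gave 9.09% and 9.96%, all below their values at 201 to 800 bp. Close pairs have little DNA between the starts: per 100 kb of such DNA, pairs with a peak numbered 60.8 in the closest class, 68.5 at 201 to 400 bp and 12.3 in the widest. Per length of DNA the closest class was lower only than that at 201 to 400 bp. In the classes between, the value was 40.2 at 401 to 600 bp and 29.9 at 601 to 800 bp. A pair counts once however far apart its starts are, so at an equal share this value falls with spacing. It therefore cannot test the low share of either the closest or the widest pairs.

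**Figure D2:**
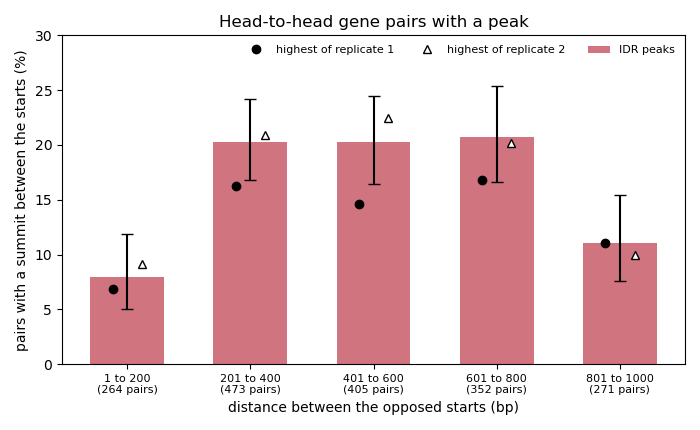
Share of head-to-head autosomal gene pairs with a summit between the starts (vertical axis, %) by the distance between the starts in bp (horizontal axis). Bars are IDR peaks with exact 95% intervals for counting error, and points are the highest peaks of each replicate. The share is about 20% from 201 to 800 bp and lower in the closest and widest classes in both replicates.

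Bound pairs were not spread evenly over the chromosomes. The share of head-to-head pairs with a peak was 26.0% on chromosome III and 20.8% on chromosome I, against 17.3% on chromosome IV, 13.5% on chromosome II and 10.6% on chromosome V. In replicate 1 the shares were 20.2, 17.9, 13.7, 9.94 and 8.94% in that order, and in replicate 2 they were 26.3, 22.0, 18.5, 15.8 and 8.94%. The order of the 5 chromosomes was the same in the IDR list and in both replicates. Per Mb of divergent sequence the number of peaks was highest on chromosome III at 262 and lowest on chromosome V at 97.2. The median score differed less, between 43.7 on chromosome III and 50.6 on chromosome IV.

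Peaks at divergent promoters scored somewhat higher than those at one-strand promoters. The lowest, median and highest scores were 30.8, 46.2 and 146.0 at divergent promoters, and 30.8, 41.6 and 146.2 at one-strand promoters. The medians differed by 4.52, and the ranges between quartiles overlapped widely, at 36.8 to 60.3 for divergent and 35.1 to 53.0 for one-strand promoters. Autosomal peaks outside windows had a median of 39.1. Among the highest peaks of each replicate, on that replicate's own scale, the medians were 19.4 and 17.9 in replicate 1 and 28.2 and 26.7 in replicate 2, differences of 1.48 and 1.45. The class was more frequent towards the top of the ranking, though not steadily. It supplied 10 of the 20 highest autosomal promoter peaks (50%), 29 of the 50 highest (58%) and 165 of the 400 highest (41.25%). Of the 400 lowest it supplied 114 (28.5%), and of all autosomal promoter peaks 34.4%. Among autosomal peaks at any position it supplied 5 of the 20 highest (25%) and 20 of the 50 highest (40%), against 19.7% of all. At like distance from the nearest start the difference in median score ran between -3.90 and 20.2 over the 7 classes and was negative in 1 of them, between 300 and 400 bp upstream. In replicate 1 it was negative in that class, at -1.72, and in replicate 2 between 400 and 600 bp, at -1.97. The value of 20.2 rests on 7 divergent peaks.

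**Figure D3:**
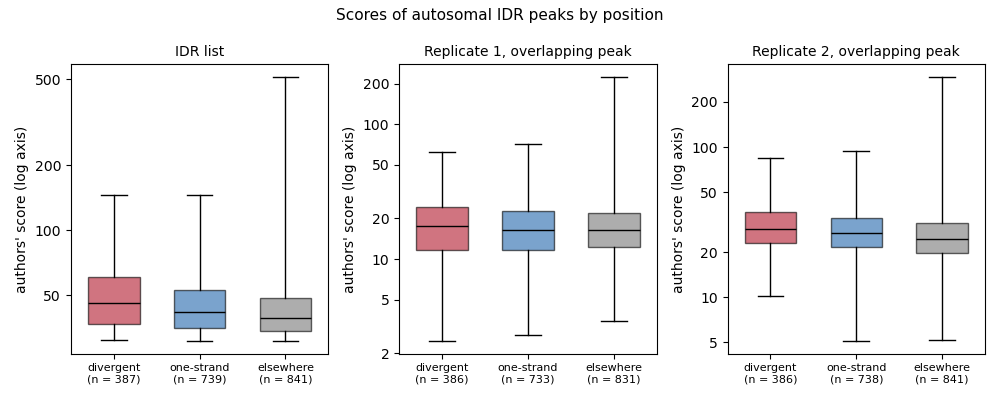
Authors' scores (vertical axes, log scale) of autosomal IDR peaks at divergent promoters (red), at one-strand promoters (blue) and elsewhere (grey), in the IDR list and for the overlapping peak in each replicate. Boxes give quartiles and median, and whiskers run to the lowest and highest value. The IDR medians are 46.2, 41.6 and 39.1, and the boxes overlap.

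Support in the replicates was counted as an overlap of at least 1 bp with one of the 2570 highest peaks of a replicate. Of the divergent-promoter peaks, 240 (62.02%, interval 57.0 to 66.9%) had it in both replicates, against 52.4% (48.7 to 56.0%) of one-strand promoter peaks and 53.3% of all IDR peaks. Replicate 2 held 345 of the 387 among its highest peaks and replicate 1 held 276, while 6 were among the highest of neither. In the full replicate lists, a single divergent-promoter peak, that of ddx-15 and ucr-1, had no overlapping peak in replicate 1, and a single one, that of F59A6.11 and citk-2, had none in replicate 2. Support followed the score closely. The score was made from both replicates together, so this trend is in part built in. Comparisons of support between classes that differ in score are affected in the same way. With the peaks cut into 5 groups by score, all 78 of the highest group had it, against 56 of 77 in the middle group and 7 of 77 in the lowest. Across the 385 peaks found in both replicates, Spearman's rho between the replicates' scores was 0.33, against 0.19 over 732 one-strand promoter peaks. Each rho compares peaks of the same 2 libraries. All these peaks had first passed the score cut of the IDR list, and the part of that cut in the 2 values was not tested.

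**Figure D4:**
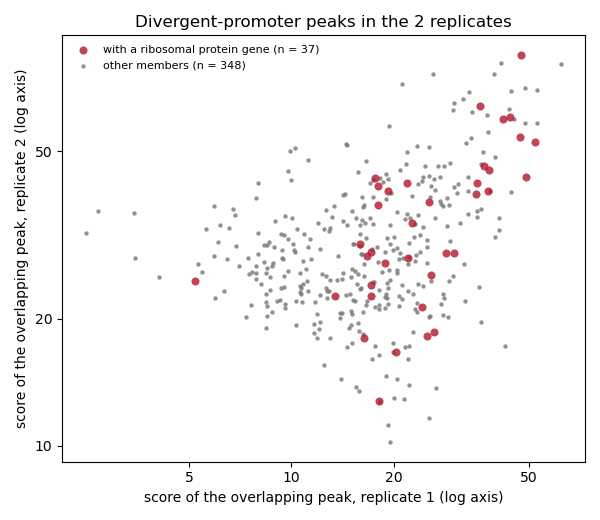
Score of the overlapping peak in replicate 1 (horizontal axis) and replicate 2 (vertical axis), both on log scales, for the 385 divergent-promoter peaks found in both. Red points are peaks with a gene for a cytoplasmic ribosomal protein, with medians of 24.3 and 33.8, and grey points are the other peaks, with medians of 16.6 and 28.0.

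The 20 highest-scoring peaks lay beside genes of varied function, 5 of them beside a ribosomal protein gene. First was the peak at chrIII:10742476-10742839, between tbb-1, which encodes a beta-tubulin, and rib-2, which encodes a glycosyltransferase of heparan sulfate synthesis. It scored 146.0 in the IDR list, 62.2 in replicate 1 and 80.7 in replicate 2. The peak between rpl-12, a large ribosomal subunit gene, and lin-54, the DNA-binding subunit of the DREAM repressor complex, scored 132.8, with 47.3 and 84.7 in the replicates. After these came the peak between iff-2, a gene for the translation factor eIF5A, and F54C9.14, with a score of 125.9 and replicate values of 41.4 and 80.8. The sequences printed above for these 3 peaks hold no GAGAGA.

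The peak between hel-1, which encodes an RNA helicase, and C26D10.4 scored 121.7, with 52.7 in replicate 1 and 69.7 in replicate 2. Between eef-1A.1, which encodes an elongation factor that brings aminoacyl-tRNA to the ribosome, and rfc-4, a clamp-loader gene of DNA replication, the score was 119.96, with 48.5 and 70.8. C06B3.6 and C06B3.7 followed with a score of 114.1 and replicate values of 52.6 and 58.2. The 5 highest in replicate 1 were those of tbb-1, hel-1, C06B3.6, rpl-15 and rps-19, and the 5 highest in replicate 2 were those of rpl-12, iff-2, tbb-1, R05D3.8 and snr-2. A single peak, that of tbb-1 and rib-2, was thus in both sets of 5.

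Between them, the other pairs of the 20 highest scored 98.8 to 112.8. The gene ceh-38, for a homeodomain protein of the ONECUT class, shares its peak with malt-1 at a score of 112.8. The next were R05D3.8 and rfp-1 at 112.0, C37A2.8 and E02D9.1 at 107.1, and rpl-15 and K11H12.8 at 106.1. Y106G6D.5 and rbm-12, an RNA-binding protein gene, had 105.3, and K01G5.10 and tasp-1, a gene for a threonine aspartase, had 105.2. Small-subunit ribosomal genes followed, with 103.7 at ska-3 and rps-12 and 103.5 at ifet-1 and rps-1. C17H12.2 and vha-8, for a proton pump subunit, had 102.4, and rpl-20 and Y17G9B.5 had 102.0. The peak of W08E3.4 and snr-2, a gene for a core spliceosomal Sm protein, scored 100.9 and differed between the replicates, at 26.1 in replicate 1 and 76.2 in replicate 2. The remaining 3 were mig-5, a Dishevelled gene of the Wnt pathway, with cct-1, a chaperonin gene, at 100.9, efl-1, an E2F gene, with fbxa-90 at 99.5, and rde-4, an RNA interference gene, with cox-14 at 98.8. All 20 were among the highest peaks of both replicates.

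Genes for cytoplasmic ribosomal proteins, the protein parts of the translation machinery, had the most peaks of the 21 gene lists at these promoters. They were present at 37 of the 387 peaks (9.56%), and 39 of the 80 such autosomal genes (48.8%) had a divergent-promoter peak in a window, against 4.59% of all 17242 autosomal protein-coding genes. Proteasome subunits, at 17 of 33 (51.5%), and the DREAM complex and Rb group, at 4 of 8 (50%), had larger shares of their genes. The 37 ribosomal protein gene peaks had a median score of 57.6, between 31.8 and 132.8, against 45.2 for the other 350. Replicate medians were 24.3 against 16.6 in replicate 1 and 33.8 against 28.0 in replicate 2. Of the 37, 31 (83.8%) were among the highest of both replicates, against 59.7% of the others. Ribosomal protein genes at one-strand promoters had 25 peaks with a median of 48.5. Without peaks at these genes in either class, the median score of divergent-promoter peaks still exceeded that of one-strand promoter peaks by 4.01.

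The summits at ribosomal protein genes were more often nearer the partner gene, with no test of this. In the 35 pairs where exactly 1 of the nearest genes was ribosomal, the partner's start was nearer in 23 and the ribosomal start in 12. The median distances were 301 bp to the ribosomal start and 177 bp to the partner's start. Worm transcripts are often trans-spliced, so an annotated start may lie downstream of where transcription begins. The part of this in the distances was not tested. Among head-to-head pairs, 45 held a ribosomal protein gene and 36 of these (80.0%) had a peak between the starts. Both genes of a pair came from the list at 2 peaks. The peak of rps-10 with rpl-24.1 scored 58.7, with 17.9 in replicate 1 and 41.4 in replicate 2. The peak of rps-14 with rpl-36 scored 54.3, with 28.6 and 28.6.

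Other lists of widely expressed genes also had larger shares with a peak than head-to-head genes as a whole, of which 604 of 3512 (17.2%) had one between the starts. Cytoplasmic ribosomal protein genes had one at 38 of 48. For proteasome subunits, which form the main protease of the cell, it was 15 of 21 (71.4%), but their 18 peaks had a median score of 41.7, below that of the whole class. The highest of these were rpn-12 with rad-23 at 77.1, rpn-9 with T06D8.9 at 69.8, pas-4 with rpb-3 at 64.3 and rpt-2 with aps-1 at 60.05. For splicing and RNA-binding proteins the count was 14 of 30, including snr-2 and the peak shared by snr-3 and rsp-5, a pair from the same list, which scored 70.8 with 14.5 in replicate 1 and 51.8 in replicate 2. Peaks of the list that did not meet this condition included those of rbm-12 and of lsm-3, the second at a score of 78.0. The other pair from the same list, rsp-2 and rsp-1, genes for splicing factors of the SR type with starts 1019 bp apart, also did not meet it. Its peak scored 60.9 and was the stronger in replicate 1, at 36.1 against 19.7 in replicate 2. The lists were drawn up with earlier results of these data known and count genes by their names.

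Translation factors had a peak at 10 of 22 head-to-head genes, led by iff-2, eef-1A.1, eef-1G with ctf-4 at 97.4, and egl-45 with kcmf-1 at 93.0. The egl-45 peak lies within 20 kb of egl-5, the gene for which the integrated insertion is listed, and the part of that insertion in its score was not tested. Chaperones and cyclophilins had one at 15 of 34, with cct-1, cct-6 with alh-9 at 92.0 and hsp-60 with Y22D7AL.10 at 72.3 as the highest. The divergent-promoter peak of hsp-90 and C47E8.4, at 75.2, was not among the 15. Respiratory chain and ATP synthase genes had one at 12 of 31, led by cox-14, ndub-8 with cup-14 at 93.2, nuo-1 with rpl-36.A at 84.3 and atp-1 with mcrs-1 at 68.8. At ndub-8 the replicates differed, with 21.1 in replicate 1 and 72.1 in replicate 2.

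Nuclear pore and transport genes had a peak at 8 of 20, of which npp-3 with top-2 scored 71.3. Vesicle traffic genes had one at 9 of 25, of which rab-11.1 with rpl-7 scored 50.4 and copa-1 with gst-43 scored 49.8. The list's highest divergent-promoter peak, that of vps-32.1 and icd-1 at 72.8, lay between starts 1053 bp apart and was not among the 9. The count was 9 of 27 for mitochondrial ribosomal proteins, of which mrpl-45 with Y119D3B.12 scored 95.1 and mrpl-49 with rpl-28 scored 80.2. RNA helicases had one at 3 of 7 (42.9%) and aminoacyl-tRNA synthetases at 3 of 12 (25%), against 17.2% of all head-to-head genes. Both counts are only a few genes above that share. Of the 4 synthetase peaks at divergent promoters, 1 was among the highest of both replicates, and that of fars-1 and rbm-5 scored 5.93 in replicate 1 and 37.0 in replicate 2. The helicase peak of ddx-15 and ucr-1 had no overlapping peak in replicate 1 and scored 28.2 in replicate 2. Of the 8 autosomal genes of the DREAM complex and Rb group, which represses cell cycle and germline genes, 4 had a divergent-promoter peak, against 4.59% of all autosomal genes. These were lin-54, efl-1, lin-53 with nra-2 at 67.0 and lin-35 with vps-51 at 36.0.

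Counts for lists of genes with restricted expression were low or close to the background. None of the 8 autosomal Hox genes and cofactors and none of the 11 genes of tail and rectal development had a divergent-promoter peak. Of all autosomal genes 4.59% had one, and lists of 8 and 11 genes are too short to tell none from that share. No gene of either list stood in a head-to-head pair with starts up to 1000 bp apart. Peaks between starts farther apart can also meet the definition, so this alone does not fix the counts. The part of gene arrangement in them was not tested. At one-strand promoters, 3 and 2 genes of these lists had a peak. Chemoreceptor genes of the str and srh families had a peak at 1 of 47 head-to-head genes (2.13%), collagens at 2 of 23 (8.70%) and nuclear hormone receptors at 2 of 19 (10.5%), against 17.2% of all head-to-head genes. The last 2 counts are a few genes short of that share. The collagen peak of col-38 is shared with rpl-5 and scored 63.9. Of 60 histone genes in head-to-head pairs, none had a peak. Histone genes are near-identical copies, and how the authors treated reads that match several places is not given in the sources used here, so this count is uncertain. A divergent-promoter peak was present at 3 of 45 homeobox genes of the ceh series (6.67%, against 4.59% of all autosomal genes), ceh-38, ceh-92 with Y66D12A.7 at 44.7 and ceh-100 with lips-15 at 37.8.

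**Figure D5:**
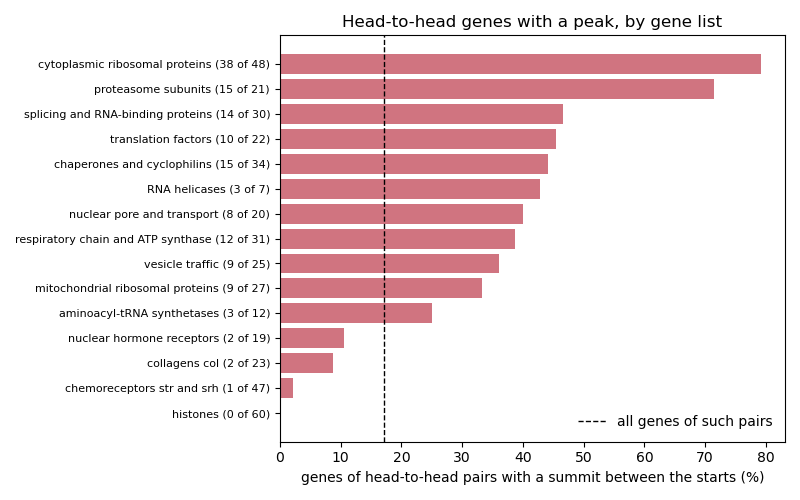
Share of head-to-head autosomal genes with an IDR summit between the starts (horizontal axis, %) for the gene lists with at least 7 such genes (vertical axis, counts in brackets). The dashed line is the 17.2% of all 3512 such genes, and the lists run between 38 of 48 ribosomal protein genes and 0 of 60 histone genes.

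GAGAGA was less frequent at divergent promoters than at other IDR peaks. It occurred within 50 bp of the summit at 67 of 387 divergent-promoter peaks (17.3%, interval 13.7 to 21.5%), against 28.6% (25.3 to 31.96%) of one-strand promoter peaks, 33.1% of autosomal peaks elsewhere and 26.8% of all IDR peaks. The same windows 200 to 300 bp from the summits held it at 6.20%, and all 20413 tiles of the same length in divergent promoter sequence at 6.05%. Among the highest peaks of each replicate the shares were 18.1% at divergent and 25.5% at one-strand promoters in replicate 1, and 15.3% and 26.4% in replicate 2. The difference was not even over distance from the nearest start. In the last 100 bp before the nearest start, 14.7% of divergent and 34.7% of one-strand peaks held it, and within 200 bp past the start 6.06% and 36.4% did. Between 100 and 200 bp upstream the shares were 18.6% and 23.5%, between 200 and 300 bp 19.2% and 17.9%, and between 300 and 400 bp 25.9% and 25.3%. Farther out the divergent peaks were few, with 1 of 16 (6.25%) against 27.6% between 400 and 600 bp and 4 of 7 (57.1%) against 40.3% between 600 and 1000 bp.

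Ribosomal protein gene peaks nearly lacked the repeat, which was present at 1 of 37 (2.70%), against 66 of 350 other divergent-promoter peaks (18.9%). Other lists varied. None of the 18 proteasome peaks and none of the 16 peaks of chaperones and cyclophilins held it, but 2 of 10 for mitochondrial ribosomal proteins, 2 of 11 for translation factors (18.2%), and 1 of 4 each for aminoacyl-tRNA synthetases and RNA helicases did. Peaks with the repeat had a median score of 44.6 and those without it 46.5. The starts around peaks with it were a median of 648 bp apart, against 486 bp without it, and the repeat lay a median of 20.5 bp from the summit.

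GC-rich hexamers, and not GAGAGA, led a count over all 2080 hexamers, each pooled with its reverse complement. The count was made after the data were seen and has no test. Ranked by the share of summits within 50 bp minus the share of the flanks 200 to 300 bp away, GAGCGC led with 19.4% of divergent-promoter peaks, against 12.4% of one-strand promoter peaks and 2.07% of flanks. CGAGAC followed with 19.4%, against 11.6% and 2.84%, and GAGACC with 18.9%, against 9.88% and 2.58%. These last 2 overlap by 5 letters and partly count the same places. The next were AGCGCG at 17.1%, GGCGCA at 17.3%, ACGCGC at 15.8%, GCGCAC at 16.0%, ACCGTA at 16.8%, GACGCA at 16.8% and GCGAGA at 17.3%, and several of these overlap as well. In the tiles of divergent promoter sequence, the shares of the 10 ran between 2.05% for AGCGCG and 3.72% for GCGAGA. The repeat GAGAGA came after all 10, with a difference from flanks of 11.1 percentage points.

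At least 1 of the 10 was present at 288 divergent-promoter peaks (74.4%), against 58.3% of one-strand promoter peaks, 33.9% of autosomal peaks elsewhere, 15.1% of flanks and 18.7% of tiles. Since the 10 were picked by their shares at divergent-promoter peaks over flanks, the shares at these peaks and flanks are a description of the choice. The gaps between these peaks and the other sets are affected in the same way. The midpoints of the 1463 head-to-head pairs without a peak held at least 1 of them at 23.7%. The median GC content around the summits was 46.5% at divergent promoters, 45.5% at one-strand promoters and 43.6% elsewhere, against 34.7% in flanks and in tiles and 33.7% at the midpoints of pairs without a peak. The part of GC content in these shares was not tested.

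ACCGTA, with 3 of its 6 letters G or C, differed most between classes among the 10. It occurred at 16.8% of divergent-promoter peaks, 5.41% of one-strand promoter peaks, 1.31% of autosomal peaks elsewhere, 2.33% of flanks and 3.26% of tiles. The 10 were picked on these peaks and their flanks, and ACCGTA for its gap among them. Its shares are therefore a description of the choice. Among the highest peaks of the replicates at divergent promoters ACCGTA was at 16.2% in replicate 1 and 16.8% in replicate 2. Both lists come from the libraries behind the IDR peaks. It was present at 14 of the 37 ribosomal protein gene peaks (37.8%) and at 14.6% of the others. Peaks with it had a median score of 57.6, against 44.6 without it, with 19.2 against 17.4 in replicate 1 and 34.8 against 27.7 in replicate 2. The sequences printed above contain it, as written or in reverse, at eef-1A.1, R05D3.8 and cup-14. AAATCG had a wider gap between divergent and one-strand promoter peaks, at 22.5% and 9.34%, but was nearly as frequent in the flanks of the divergent-promoter peaks, at 17.6%.

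Letters that homeodomain proteins are known to bind were not frequent at the summits. TAATTA, a common homeodomain core, occurred at 4 of 387 divergent-promoter peaks (1.03%), against 1.49% of one-strand promoter peaks and 7.62% of the flanks of divergent-promoter peaks. TTTATG, a hexamer of the kind bound by posterior Hox proteins, occurred at 6.46%, against 7.71% of one-strand promoter peaks, 15.0% of autosomal peaks elsewhere and 8.14% of flanks. Both hexamers are rich in A and T. Median GC content was 46.5% around the summits and 34.7% in flanks, and its part in these shares was not tested. TGCGTC, the reverse complement of GACGCA, occurred at 16.8% of divergent-promoter peaks and 17.5% of one-strand promoter peaks. TATAAA was at 4.65% of divergent-promoter peaks and 10.7% of flanks, and TTTCAG, the letters of a worm splice acceptor, at 8.53% and 30.4%. TTCGAA was at 8.53%, against 6.09% of one-strand promoter peaks and 8.91% of flanks. Of the other 4 motifs searched, CAGCTG was at 4.13% of divergent and 6.22% of one-strand promoter peaks, CCAAT at 16.5% and 19.8%, CCCGCC at 6.20% and 6.63%, and GATAAG at 2.33% and 2.17%. In tiles of divergent promoter sequence TAATTA was at 5.33%, TTTATG at 9.06%, TGCGTC at 2.98%, TATAAA at 13.05%, TTTCAG at 20.6%, TTCGAA at 6.99%, CAGCTG at 2.02%, CCAAT at 18.2%, CCCGCC at 1.78% and GATAAG at 4.84%.

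At the edge of the definition, the last summits inside were those of R107.5 and cls-2, at -259 and -999 bp from their starts with a score of 67.3, and of pes-9 and R11H6.2, at -998 and 26 bp with a score of 31.5. The first outside were those at Y41E3.8 and fcd-2, with the farther start 1019 bp away and a score of 34.7, and at clc-9 and rps-5, with the farther start 1023 bp away and a score of 31.3. Within genes for RNAs that are not translated lay 36 of the summits (9.30%), against 7.71% of one-strand promoter summits. All 36 lay in a gene of the ncRNA class, with 1 tRNA gene and 1 snoRNA gene at the same places.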

How the data were processed

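ChIP-seq of eGFP-tagged EGL-5 in whole L3 larvae gave 2 samples of 1 group. The authors deposited narrowPeak lists for each replicate, for both together and after IDR thresholding, and each peak carries a deposited score in the signal column, with no stated scale. The sources used here do not state the aligner, the peak caller, their settings or the threshold set for IDR. The IDR list was the 2570 peaks with the highest scores among the 28619 of the pooled list, so both lists hold one measurement. Scores were read on ce11, and no coordinate was converted. At equal rank, scores of ce11 replicate 1 differed by a median of 39.3% from ce10 replicate 1 and by 0.218% from ce10 replicate 2.

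Summits were placed in windows around 29314 protein-coding starts of Ensembl release 115 (WBcel235, the assembly called ce11) with Python 3.11.15, numpy 2.4.6, pandas 2.3.3 and SciPy 1.17.1, and sequences were read from the RefSeq genome of the same assembly. Genes with more annotated starts have more windows. Densities are exact counts of bases, summed over the 5 autosomes. Support in a replicate means an overlap of at least 1 bp with its 2570 highest peaks, a number set to the size of the IDR list. Intervals on shares are exact 95% intervals (Clopper-Pearson), which hold counting error alone. With 1 group, no test between conditions was possible, and no p-value is given. The code that places summits was tested on simulated positions.

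The peaks, the 21 gene lists and the 11 motifs were chosen with earlier results of these data known. Gene lists were matched by gene name. The text names both genes at the 20 highest peaks, the 5 highest of each replicate, the 3 closest and 3 widest pairs, up to 4 peaks per gene list, pairs from 1 list, and 2 summits on each side of the window edge, with sequences for 5 peaks with GAGAGA and 3 without. The distance classes and the count of all hexamers were added after the data were seen. Alternatives changed the window, the starts used, the score cut, the replicate list, the chromosomes, the motif distance and the peaks left out.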

Additional observations from a re-analysis of the deposited data

How the results depend on the processing

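The 5 quantities with a direction that were recomputed kept it under every alternative run for them: the density ratio, the score difference, and 3 added after seeing the data. These 3 are GAGAGA and support in both replicates at divergent minus one-strand promoter peaks, and the score with minus without a ribosomal protein gene. Hexamers, gene list shares and the order of chromosomes were not recomputed under other windows. Windows reaching 500 and 2000 bp upstream moved the divergent share of autosomal promoter peaks to 28.2 and 39.5%, the density ratio to 6.36 and 3.64, the difference in median score to 3.52 and 4.12, GAGAGA to 12.7 and 22.1% and the median spacing to 395 and 724 bp. One start per gene gave a share of 37.0% and a score difference of 3.90. The higher-scoring peaks of the list, down to its median, gave 241 divergent-promoter peaks, a share of 38.3%, a density ratio of 5.64, a score difference of 3.12, 10.6% of pairs, 86.3% supported in both replicates and 12.5% with a ribosomal protein gene. Peaks supported in both replicates gave 240, 38.3%, 5.65, 2.24, 10.3% and 12.9% for the same quantities, support aside. With chromosome X the share was 29.3%, the ratio 4.23 and the score difference 4.87. The score difference was 4.50 without the egl-5 locus, 4.68 for head-to-head peaks and 4.01 without ribosomal protein genes, an alternative chosen after seeing the data. Searching 25 or 100 bp around the summit moved GAGAGA to 9.30 or 26.4%. The GAGAGA difference of -11.2 percentage points became -7.99 with the 2000 bp window and -6.12 or -17.1 when searching 25 or 100 bp. The support difference of 9.65 points became 4.82 for the higher-scoring peaks. The cause of these changes was not tested.

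Leaving out either replicate and taking the highest peaks of the other gave 31.6 to 34.5% for the share, 4.204 to 4.805 for the ratio, 13.8 to 17.7% for pairs, 15.3 to 18.1% for GAGAGA and 511.5 to 541 bp for spacing. The GAGAGA difference was -11.1 to -7.40 points. On the replicate lists' own smaller scales, the score difference was 1.45 to 1.48 and that for ribosomal protein genes was 5.11 to 9.84, against 12.3 in the IDR list. No paired analysis was possible because both samples belong to 1 group. Support in both replicates reached 9.09% in the lowest-scoring of 5 groups, so single peaks there rest on little. Depth could not be assessed without reads.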

Other observations

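Some peaks had very unequal replicate values. The 3 with the lowest ratio of replicate 1 to replicate 2 and the 3 with the highest are given, chosen after the values were seen. The lists' scales differ, so a ratio of 1 is not the centre. Lowest were xpo-3 with C49H3.3 at 2.70 in replicate 1 and 36.0 in replicate 2, Y42H9AR.4 with Y42H9AR.1 at 2.49 and 32.0, and cyn-7 with bath-36 at 3.45 and 35.6. Highest were fbxb-85 with hex-3 at 42.4 and 17.2, nep-26 with mdt-22 at 25.4 and 11.6, and epc-1 with Y111B2A.12 at 26.5 and 13.7.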
